A study of Mus musculus with 8 samples.

Results

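The immediate early AP-1 and Egr genes are described here in E14 mouse embryonic stem cells (ESCs), an established line, after knockdown of Sox2, hnRNPK or Cdk9. The set was chosen by name, with earlier results of these data known, so shares of its members beside those of all genes are descriptions. It holds 10 of the 55335 genes in the count table, namely Fos, Fosl1, Jun, Junb, Jund, Egr1, Ier2, Ier3, Atf3 and Dusp1. Fosl1 and Egr1 had too few reads to be tested, so 8 of the 10 were among the 16504 genes that passed the filter on low counts. Polyadenylated RNA was sequenced from 8 libraries in 4 groups of 2, which carried a lentiviral negative control shRNA (control), an shRNA against Sox2 (Sox2-KD), against Hnrnpk (hnRNPK-KD) or against Cdk9 (Cdk9-KD). All groups were infected and selected with puromycin for 5 days, and all were grown on gelatin with serum, LIF, the GSK3 inhibitor CHIR99021 and the MEK inhibitor PD0325901. The replicates were described as biological duplicates, and which of the hairpins against a gene each library carried was not given in the sources used here, so the p-values measure the spread between these samples. In bulk RNA of this kind, fewer cells of a type and less RNA per cell cannot be told apart.

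Immediate early genes are transcribed within minutes of a signal, without new protein synthesis, because their promoters are bound beforehand by factors that kinases activate. The MEK and ERK kinases act through SRF and its ternary complex partners on Fos and Egr1, and the JNK and p38 kinases act through Jun and Atf2. Fos and Jun proteins dimerise through leucine zippers to form AP-1, which binds a short palindrome in many later genes, while Egr1 is a zinc finger activator. Release of paused RNA polymerase by the kinase Cdk9, in P-TEFb, is a known step of their transcription, and in pluripotent cells ERK signalling is known for opening the way to differentiation.

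The promoters of Fos, Jun and Junb, 3 AP-1 subunits whose levels in both Sox2-KD libraries lay above both controls, are shown for their start-site elements, in the RefSeq annotation of GRCm38.p6, from 250 bases before to 50 bases after the annotated start. They are Fos at chr12:85473640-85473939 on the plus strand, Jun at chr4:95052173-95052472 on the minus strand and Junb at chr8:84978699-84978998 on the minus strand. Capitals mark the TATA box (TATAAA), the half-site of the cAMP response element or CRE (TGACG) and the Jun site (TGACATCA), each searched on both strands, while GC boxes stay in lower case.
Fos: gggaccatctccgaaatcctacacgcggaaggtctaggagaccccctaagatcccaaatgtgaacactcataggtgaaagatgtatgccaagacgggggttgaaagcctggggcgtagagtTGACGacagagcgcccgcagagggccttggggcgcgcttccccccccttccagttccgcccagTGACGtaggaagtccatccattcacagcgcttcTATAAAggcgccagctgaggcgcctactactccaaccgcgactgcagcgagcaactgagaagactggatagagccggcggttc
Jun: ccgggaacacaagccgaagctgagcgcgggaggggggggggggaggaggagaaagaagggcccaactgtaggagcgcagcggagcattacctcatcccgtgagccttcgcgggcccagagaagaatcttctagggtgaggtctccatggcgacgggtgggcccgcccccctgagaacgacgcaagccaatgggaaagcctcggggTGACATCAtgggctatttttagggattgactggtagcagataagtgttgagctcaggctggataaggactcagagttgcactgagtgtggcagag
Junb: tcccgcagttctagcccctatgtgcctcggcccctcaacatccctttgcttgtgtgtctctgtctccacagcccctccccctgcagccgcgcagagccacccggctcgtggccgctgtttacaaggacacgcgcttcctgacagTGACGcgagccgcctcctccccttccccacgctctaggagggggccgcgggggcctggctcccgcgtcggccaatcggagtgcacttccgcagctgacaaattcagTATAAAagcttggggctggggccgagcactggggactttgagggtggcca
The Fos window held a TATA box 33 to 28 bases before the start and CRE half-sites at 129 to 125 and 66 to 62 bases before it. In Jun the one marked element was TGACATCA, 45 to 38 bases before the start. Junb had a CRE half-site 106 to 102 bases before the start, and its TATA box lay at bases 1 to 6 of the annotated transcript, which in GENCODE starts further downstream. Of 32851 promoter windows of this length, 13.6% held TATAAA, 20.8% the CRE half-site and 3.62% the Jun site. No window of Fosl1, Egr1 or Ier2 was searched, so SRF sites near Egr1 were not tested. Windows of 7 of the 10 members were searched, and that of Jund lies away from the start of the gene model counted here. Among these, the full CRE (TGACGTCA), held by 1.79% of all windows, was seen in Dusp1, where it overlaps CRE half-sites, and Atf3 held 5 GC boxes (GGGCGG), a motif in 35.7% of all windows. None of the 7 windows held the CArG box that SRF binds, the AP-1 site TGANTCA with C or G at N, the Egr site or the SOX motif CATTGTT, which says only that these letters are not in these 300 bases.

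Library depth was even, from 16709201 to 17719366 counted reads. The targeted genes were read first, as CPM, the reads of a gene scaled to library depth with TMM factors. Sox2 was at 320 and 284 CPM in Sox2-KD against 412 and 530 in control, a log2 fold change of -0.64 (SE 0.16, adjusted p = 0.0479). The Sox2 call was lost when the replicate block was added (0.0669), the fit held only these 4 libraries (0.0535), low counts were not filtered (0.0570) or filtered at 10 in each library (0.0535), or depth was scaled by library totals (0.0640), and without any one library of Sox2-KD, control or the hnRNPK-KD label, with adjusted p up to 0.311. Cdk9 was at 73.1 and 53.2 CPM in Cdk9-KD against 109 and 129, a log2 fold change of -0.91 (SE 0.18) whose adjusted p was 0.0985. Cdk9 was called by DESeq2 (adjusted p = 0.00071) and the likelihood ratio test (0.00097), and in edgeR without Cdk9-KD replicate 1. Hnrnpk was at 697 CPM in replicate 1 labelled hnRNPK-KD but at 1144 in replicate 2, against 1094 and 1131 in control, so replicate 2 did not have less Hnrnpk RNA than control and the group is called here the libraries labelled hnRNPK-KD. A gene was called when its adjusted p in edgeR's quasi-likelihood test was below 0.05 and its log2 fold change was beyond 0.6 in size. All 10 defining ESC markers were detected, with summed levels between 6251 and 8668 CPM over the 8 libraries.

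Levels between genes were compared as CPM per kilobase of exon in the 2 control libraries. Ier2, which encodes a small nuclear regulator of transcription, stood first at 45.8 ± 1.95 (SD, n = 2). Jund, the AP-1 subunit that many resting cells keep on, followed at 10.5 ± 2.14, and Dusp1, the phosphatase that turns off MAP kinases in the nucleus, at 7.30 ± 0.538. Junb, a weaker activator than Jun, and Ier3, an early gene linked to survival, came next at 4.25 ± 0.524 and 4.08 ± 2.33, and these neighbours overlapped.
Atf3, a stress-induced factor of the ATF family, stood at 1.43 ± 0.896, overlapping Jun at 0.916 ± 0.153, and Fos at 0.518 ± 0.182 lay below both. Egr1 and Fosl1 were last at 0.0890 ± 0.0548 and 0.0702 ± 0.0601, and overlapped. Thus the Fos and Egr branches were at the bottom of the order and Ier2 and Jund at the top.

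Egr1 had 4 and 10 reads in control, 6 and 8 in Sox2-KD, 7 and 4 in Cdk9-KD and 4 in each library labelled hnRNPK-KD. Fosl1, a Fos relative that lacks a strong activation domain, had between 0 and 4 reads in any library. The limit that a count of 0 allows, taken as 3 reads, is 0.175 CPM in the library where Fosl1 was at 0, and covers counting error only. No difference between groups was detectable for either gene at this depth. The other Egr genes were also near 0, with at most 2 reads in a library for Egr2, Egr3 and Egr4.

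**Figure D1:**
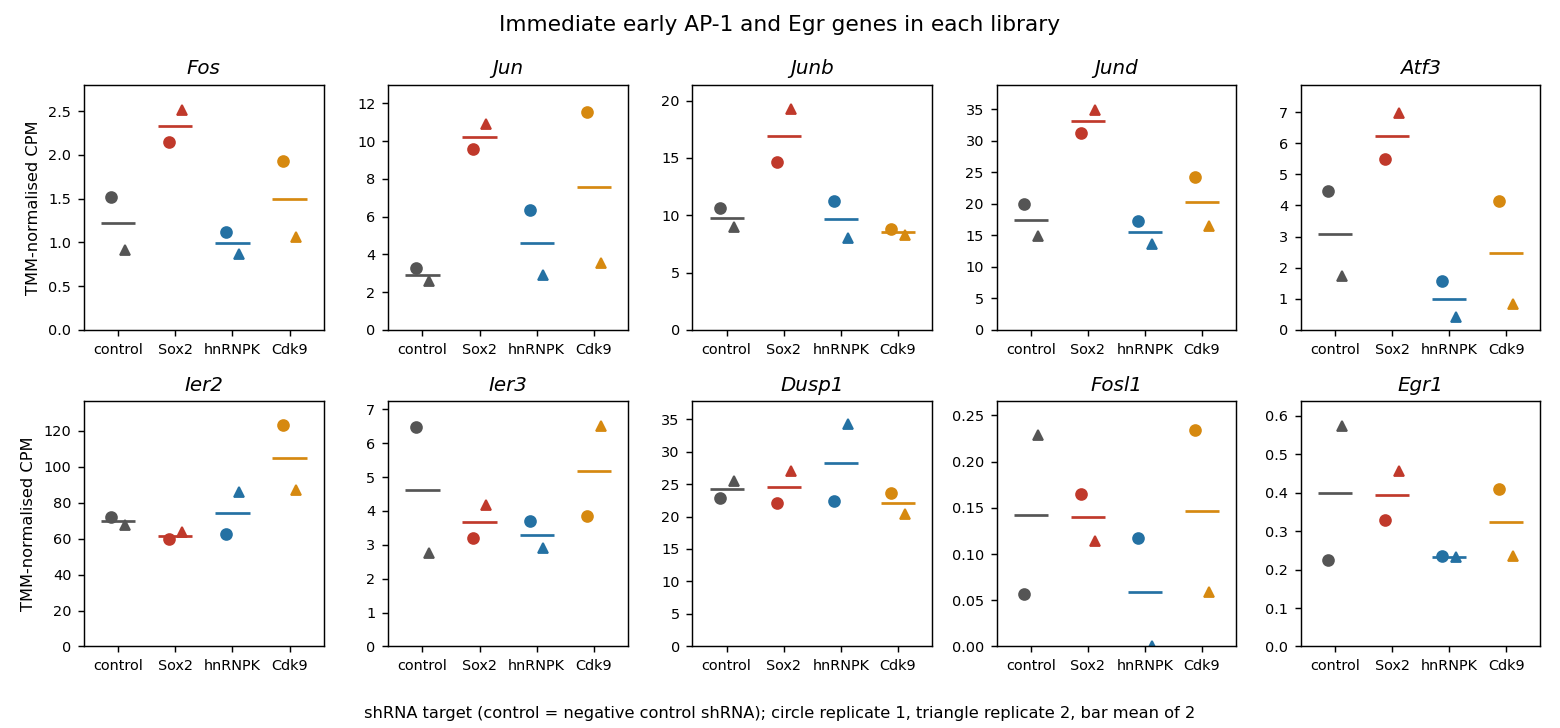
Level of each of the 10 genes in each library, as TMM-normalised CPM on linear axes that start at 0, with a circle for replicate 1, a triangle for replicate 2 and a bar for the mean of both. In the Fos, Jun, Junb, Jund and Atf3 panels both Sox2-KD libraries lie above both control libraries, and for Ier2 both Cdk9-KD libraries lie above all others, whereas Fosl1 and Egr1 stay under 0.6 CPM.

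The comparison of Sox2-KD with control asks whether the AP-1 genes shift when the pluripotency factor SOX2 is reduced. Both Sox2-KD libraries lay above both control libraries for Fos, Jun, Junb, Jund and Atf3, which is 5 of the 8 tested members, against 28.2% of all tested genes. None of the 8 passed both thresholds in edgeR, where 4.32% of all genes did. At an unadjusted p below 0.05 there were 3 members (Jun, Junb and Jund) against 19.3% of all genes, and DESeq2 and edgeR's likelihood ratio test each called 2, Jun and Jund, where these tools called 6.11% and 8.18% of all genes. The median log2 fold change of the 8 was 0.86, beside 0.02 for all tested genes.

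Jun, the main activating partner in AP-1 (GRCm38 chr4:95049034-95052222, minus strand), was at 3.27 and 2.58 CPM in control and at 9.56 and 10.9 in Sox2-KD. The groups did not overlap and the log2 fold change was 1.80 (SE 0.51, 95% interval 0.67 to 2.94, adjusted p = 0.0802). Jund (chr8:70698949-70700616, plus strand) was at 20.0 and 15.0 CPM in control and at 31.3 and 34.9 in Sox2-KD, again without overlap. Its log2 fold change of 0.92 (SE 0.24) came nearest to the threshold, with an adjusted p of 0.0569. Among the fits that left out a library, both genes passed only without a Cdk9-KD library, which lies outside this comparison. Neither passed without a library of Sox2-KD or control. Over these fits the log2 fold change ran from 1.64 to 1.97 for Jun and from 0.72 to 1.13 for Jund, lowest without control replicate 2 and highest without control replicate 1.

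Junb (chr8:84974484-84978718, minus strand) was at 10.6 and 8.94 CPM in control and at 14.6 and 19.2 in Sox2-KD, a log2 fold change of 0.79 (SE 0.25, adjusted p = 0.112). Fos (chr12:85473890-85477273, plus strand), the inducible partner of Jun, was at 1.52 and 0.917 CPM in control and at 2.14 and 2.51 in Sox2-KD. Its log2 fold change was 0.93 (SE 0.44, adjusted p = 0.287), on between 15 and 44 reads a library. Atf3 was at 4.45 and 1.72 CPM in control and at 5.49 and 6.96 in Sox2-KD, where the 2 controls lay farther apart than the nearest libraries of the groups. Its log2 fold change was 1.01 (SE 0.69, adjusted p = 0.470), and leaving out control replicate 1 gave 1.84 where leaving out the other control gave 0.48.

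The other 3 members gave no such separation upward. Ier2 was at 71.8 and 67.6 CPM in control and at 59.7 and 63.5 in Sox2-KD, so that both Sox2-KD libraries lay below both controls, as did 25.2% of all genes, with a log2 fold change of -0.18 (SE 0.20, adjusted p = 0.682). Dusp1 was at 22.9 and 25.4 CPM in control and at 22.1 and 27.0 in Sox2-KD, and the 95% interval of its log2 difference ran from -0.48 to 0.52. Ier3 was at 6.48 and 2.75 CPM in control and at 3.19 and 4.17 in Sox2-KD, with an interval from -1.29 to 0.63. These intervals leave room for changes past the fold threshold only in Ier2 and Ier3, both downward and for Ier3 also upward.

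Several members share genomic bases with a neighbour on the opposite strand, and whether reads were counted by strand was not given in the sources used here. Fosl1 shares 2767 bases with Ccdc85b, which had 114 to 192 reads in any library. Jun shares 689 bases with the antisense gene Junos, which had 2 to 6 reads in any library. Jund shares 919 bases with Gm11175, which had 0 reads in every library. Junb shares 351 bases with Prdx2, a peroxiredoxin gene with 2039 to 3528 reads, which was at 2510 and 2039 reads in Sox2-KD against 3528 and 3245 in control, a log2 fold change of -0.60 (adjusted p = 0.0476). Dusp1 shares 640 bases with Ergic1, which had 535 to 1347 reads. Ergic1 was at 535 and 715 reads in Sox2-KD against 1010 and 1262 in control, a log2 fold change of -0.88 (adjusted p = 0.0388 in edgeR). The values of these members are uncertain to that extent.

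**Figure D2:**
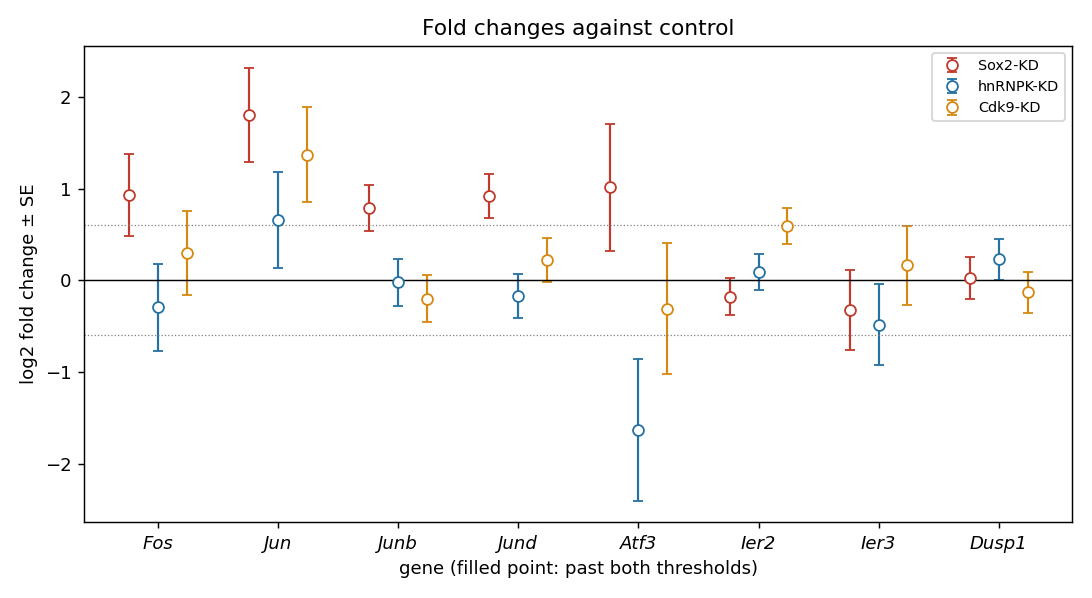
Log2 fold change against control of the 8 tested genes in Sox2-KD, Cdk9-KD and the libraries labelled hnRNPK-KD, with bars of 1 SE and dotted lines at the threshold of 0.6. No point is filled, since none passed both thresholds, and the Sox2-KD values of Fos, Jun, Junb, Jund and Atf3 lie between 0.79 and 1.80.

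In Cdk9-KD, none of the 8 members was called against control in edgeR, where 0.139% of all genes were, and neither DESeq2 nor the likelihood ratio test called one. At an unadjusted p below 0.05 there were 2, Ier2 and Jun, against 10.4% of all genes, and both had both Cdk9-KD libraries above both controls, as did 21.2% of all genes. Ier2 (chr8:84661331-84662852, minus strand) was at 123 and 87.0 CPM against 71.8 and 67.6, a log2 fold change of 0.59 (SE 0.20, adjusted p = 0.343). Jun was at 11.6 and 3.55 CPM, so one Cdk9-KD library stood at the Sox2-KD level and the other close to control. Its log2 fold change of 1.37 (SE 0.52, adjusted p = 0.398) was 0.25 without Cdk9-KD replicate 1. That library was also the higher of its pair for Fos at 1.93 against 1.06 CPM, for Jund at 24.2 against 16.6 and for Atf3 at 4.15 against 0.828. Junb differed little within the pair, at 8.76 and 8.28 CPM. The median log2 fold change of the 8 was 0.19, beside 0.02 for all genes.

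In the libraries labelled hnRNPK-KD, none of the 8 members was called against control in edgeR, DESeq2 or the likelihood ratio test, and edgeR called 0% of all genes. None had an unadjusted p below 0.05 in edgeR, where 8.03% of all genes did, and in the other tools 1 did, Atf3. Atf3 was at 1.58 and 0.407 CPM against 4.45 and 1.72 in control, both libraries below both controls as for 18.7% of all genes, with a log2 fold change of -1.63 (SE 0.77, adjusted p = 0.637) on 27 and 7 reads. Without a single library this value ran from -2.91, without replicate 1 labelled hnRNPK-KD, to -0.81, without control replicate 1. Jun was at 6.33 CPM in replicate 1, where Hnrnpk was lower, and at 2.91 in replicate 2, where it was not. The same order held for Fos at 1.11 and 0.873, for Junb at 11.3 and 8.03 and for Jund at 17.4 and 13.7 CPM. Ier2 and Dusp1 went the other way, at 62.7 and 85.8 and at 22.4 and 34.2 CPM. In the control pair, too, replicate 1 was the higher for Jun at 3.27 and 2.58 CPM and for Fos at 1.52 and 0.917. Junb at 10.6 and 8.94 and Jund at 20.0 and 15.0 CPM had the same order in control. In Sox2-KD replicate 2 was the higher for Jun, Fos, Junb and Jund. Since a single library showed less Hnrnpk RNA, no direction for the members can be drawn from these libraries. The median log2 fold change of the 8 was -0.10, beside 0.02 for all genes.

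Sox2-KD was then set directly against the other knockdowns. The comparisons that use the same Sox2-KD libraries are not independent of one another or of that with control, and their values are given side by side. Against Cdk9-KD, 2 of the 8 members were called, and 7.33% of all genes were. Junb was higher, at 14.6 and 19.2 CPM in Sox2-KD against 8.76 and 8.28 in Cdk9-KD, without overlap, with a log2 fold change of 0.99 (SE 0.25, adjusted p = 0.0415). Ier2 was lower, at 59.7 and 63.5 CPM in Sox2-KD against 123 and 87.0 in Cdk9-KD, also without overlap, with a log2 fold change of -0.77 (SE 0.20, adjusted p = 0.0423). Genes called higher made up 4.77% of all genes and those called lower 2.56%, while 24.7% had both Sox2-KD libraries above both of Cdk9-KD and 25.1% had both below. Jund also had an unadjusted p below 0.05, as did 21.7% of all genes, at 0.70 (adjusted p = 0.109). The Junb call was lost without either library of Sox2-KD, Cdk9-KD or control, with adjusted p up to 0.278, and the Ier2 call without Sox2-KD replicate 1 or 2, control replicate 1 or 2 or Cdk9-KD replicate 1, with a log2 fold change of -0.48 (adjusted p = 0.203) in the last case.

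Against the libraries labelled hnRNPK-KD, 1 of the 8 members was called, and 5.90% of all genes were, with 3.95% called higher. Jund was higher, at 31.3 and 34.9 CPM in Sox2-KD against 17.4 and 13.7, without overlap, with a log2 fold change of 1.09 (SE 0.24, adjusted p = 0.0279). The call was lost without Sox2-KD replicate 1 or 2 or without replicate 1 or 2 labelled hnRNPK-KD, with adjusted p from 0.0551 to 0.202 and log2 fold changes from 0.94 to 1.27. Fos, Jun, Junb, Jund and Atf3 all had an unadjusted p below 0.05, against 21.3% of all genes, and both Sox2-KD libraries above both others, against 27.6%. Atf3 went from 1.58 and 0.407 CPM to 5.49 and 6.96, with a log2 fold change of 2.64 (SE 0.76) and an adjusted p of 0.0703. This value was 3.91 without replicate 1 labelled hnRNPK-KD and 1.98 without replicate 2. Atf3 was called here by DESeq2 (adjusted p = 0.00426), the likelihood ratio test (0.0113), the fit of only the 4 libraries (0.0370), that with the replicate block (0.0300) and those without Cdk9-KD replicate 1 or 2 (0.0333 and 0.0348). Here the adjusted p was 0.0900 for Junb, 0.146 for Fos and 0.219 for Jun. Between Cdk9-KD and the libraries labelled hnRNPK-KD, none of the 8 was called in edgeR, DESeq2 or the likelihood ratio test, 1 (Ier2) had an unadjusted p below 0.05 where 5.71% of all genes did, and edgeR called 0% of all genes.

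**Figure D3:**
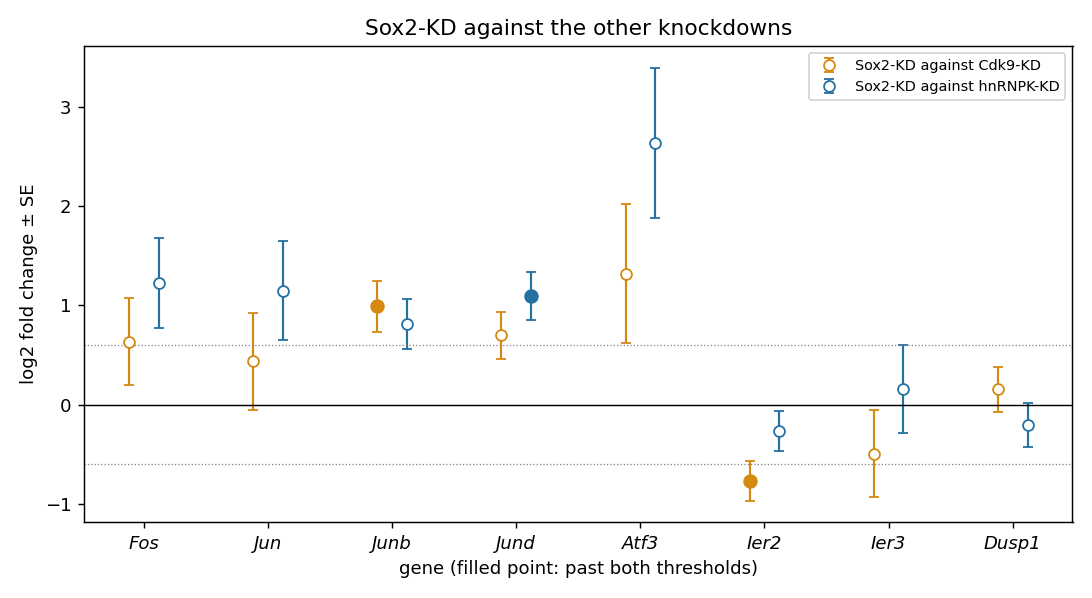
Log2 fold change of the 8 tested genes in Sox2-KD against Cdk9-KD and against the libraries labelled hnRNPK-KD, with bars of 1 SE, dotted lines at 0.6 and filled points for genes past both thresholds. Junb (0.99) and Ier2 (-0.77) are filled against Cdk9-KD and Jund (1.09) against the libraries labelled hnRNPK-KD.

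Across the 8 libraries the members fell in a group that moved together and a group that did not. Over log2(CPM + 1), Fos, Jun, Junb, Jund and Atf3 had pairwise Pearson correlations between 0.64 and 0.99, highest for Fos with Jund. These 8 points share 4 groups, so a difference between groups enters every correlation. The other 3 members did not follow them. Ier2 correlated at -0.64 with Junb, Ier3 at -0.55 with Dusp1, and the median over all 28 pairs was 0.07. Of 9619 genes with an average log2 CPM above 3 and outside the lists, the profiles most like the mean profile of the 8 were those of Adam15 (0.96), which encodes a membrane metalloprotease, Tcirg1 (0.96), a subunit of the vacuolar proton pump, and Gm4779 (0.94).

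The wider pathway was read from 8 lists of 101 further genes, of which 87 were tested. These lists, too, were chosen with earlier results of these data known, so their shares beside all genes are a description and no test. In Sox2-KD against control, 10 of the 87 were called, 7 higher and 3 lower, which is 11.5% beside the 4.32% of all genes, where 2.63% were called higher and 1.69% lower. In the same test the other knockdowns gave 0 calls among the 87. Of all genes, 0.139% were called in Cdk9-KD and 0% for the hnRNPK-KD label. At an unadjusted p below 0.05 there were 27 of the 87 in Sox2-KD, 18 in Cdk9-KD and 13 for the hnRNPK-KD label. The shares of all genes were 19.3%, 10.4% and 8.03%. DESeq2 and the likelihood ratio test each called 3 in Cdk9-KD, beside 1.27% and 1.69% of all genes. Both called 0 for the hnRNPK-KD label, beside 0.418% and 0.527% of all genes. The count of 10 fell to 3 without Sox2-KD replicate 1, 2 without Sox2-KD replicate 2, 4 without control replicate 1 and 3 without replicate 2 of control. The calls of Ier5, Zfp36, Plk3, Dusp8 and Tgfb1 were lost without any one of these 4 libraries, and those of Ier5 and Tgfb1 also with no filter. The Trib1 call was lost without Sox2-KD replicate 2 or control replicate 1, Pim1 without Sox2-KD replicate 1 or 2 or control replicate 2, Spp1 without Sox2-KD replicate 1 or 2 or control replicate 1 and with library totals, and Plaur without control replicate 2. Jdp2 was called in all 8 fits that left out a library.

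Among the other immediate early genes, 5 of 29 were called in Sox2-KD against control, 4 of them higher. Of all genes, 4.32% were called and 2.63% called higher. The list's median log2 fold change was 0.22. Trib1, a pseudokinase that scaffolds ubiquitin ligases, was at 9.29 and 13.2 CPM in control and 27.3 and 52.2 in Sox2-KD, and rose by 1.82 on the log2 scale (SE 0.30, adjusted p = 0.0110). Zfp36, which binds AU-rich RNA and speeds its decay, was at 5.46 and 4.12 CPM in control and 11.4 and 14.4 in Sox2-KD and rose by 1.43 (SE 0.29, adjusted p = 0.0247). Plk3, a stress-linked kinase, rose by 1.11 (SE 0.22, adjusted p = 0.0209) and Ier5 by 0.98 (SE 0.22, adjusted p = 0.0377). Pim1, a kinase gene that LIF and STAT3 are known to induce, was at 39.3 and 60.8 CPM against 84.0 and 135 in control, and fell by 1.13 (SE 0.26, adjusted p = 0.0373).

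Of the other AP-1 family genes, 1 of 9 was called in Sox2-KD against control, beside 4.32% of all genes. Jdp2, whose protein dimerises with Jun and represses AP-1 sites, was at 8.78 and 7.22 CPM in control, 0.769 and 1.88 in Sox2-KD, 9.58 and 8.46 in Cdk9-KD and 4.69 and 4.07 in the libraries labelled hnRNPK-KD. Its log2 fold change in Sox2-KD was -2.59 (SE 0.39, adjusted p = 0.00723), and it was -2.76 against Cdk9-KD and -1.72 against the libraries labelled hnRNPK-KD, with adjusted p of 0.00301 and 0.0306. The call against the libraries labelled hnRNPK-KD was lost without either of them, without Sox2-KD replicate 1 and in the fit of only the 4 libraries. The Sox2-KD libraries thus held the lowest Jdp2 and the highest Jund of the 8. The other AP-1 genes did not pass the test, with log2 fold changes of 0.81 for Fosl2, 0.39 for Atf7, 0.37 for Batf2, 0.31 for Mafk, 0.20 for Mafg, 0.13 for Fosb, -0.03 for Atf2 and -0.47 for Maff. Fosl2 spread from 0.946 to 14.4 CPM, with 3.04 and 9.51 in the control pair alone. Nab1 and Nab2, which bind and restrain Egr proteins, were at 0.28 and -0.11, and neither was called by any tool or had an unadjusted p below 0.05.

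**Figure D4:**
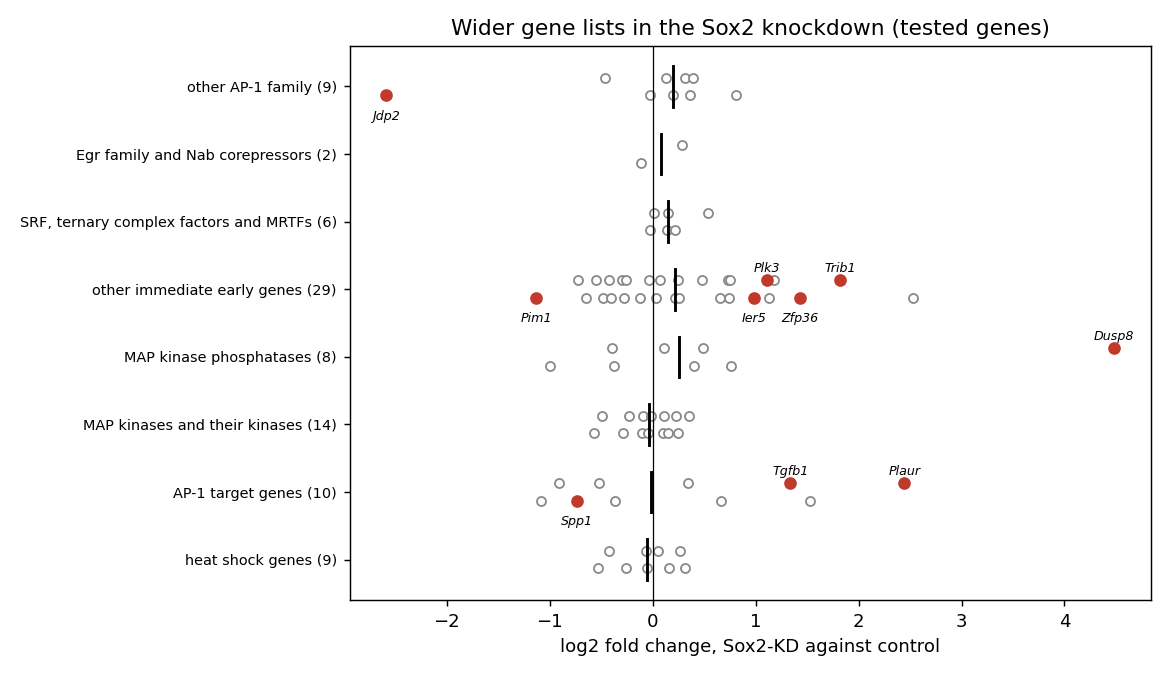
Log2 fold change of every tested gene of the 8 wider lists in Sox2-KD against control, one row a list with the number tested, open points for genes that did not pass, filled named points for the 10 that did and a bar at the list's median. The filled points lie on both sides of 0, from Jdp2 at -2.59 to Dusp8 at 4.48, and the medians lie between -0.05 and 0.26.

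Among 10 AP-1 target genes, 3 were called in Sox2-KD against control, beside 4.32% of all genes, and the list's median log2 fold change was -0.01. Plaur, the urokinase receptor, was at 3.72 and 3.27 CPM in control and 16.8 and 21.3 in Sox2-KD, and rose by 2.45 on the log2 scale (SE 0.33, adjusted p = 0.00543). It was also called against Cdk9-KD at 2.53 and against the libraries labelled hnRNPK-KD at 2.13, the latter call being lost without replicate 2 of either group. Tgfb1, a growth factor gene, rose by 1.34 (SE 0.30, adjusted p = 0.0359), from 5.46 and 4.98 CPM to 11.5 and 14.9. Spp1, which encodes osteopontin, was at 822 and 574 CPM in control and 408 and 429 in Sox2-KD, and fell by 0.74 (SE 0.17, adjusted p = 0.0383). Plau, urokinase itself, was at 1.76 and 2.68 CPM in Sox2-KD against 0.466 to 0.802 in the 6 other libraries, and was called against Cdk9-KD (2.05) and the libraries labelled hnRNPK-KD (2.14). Both Plau calls were lost with DESeq2, without Sox2-KD replicate 2 and without either library of the other group. AP-1 target genes thus went in both directions.

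In Sox2-KD against control, edgeR, DESeq2 and the likelihood ratio test called 4.32%, 6.11% and 8.18% of all genes. In edgeR 19.3% of all genes had an unadjusted p below 0.05. None of 14 MAP kinases and their kinases was called there in edgeR, DESeq2 or the likelihood ratio test, and 2 had an unadjusted p below 0.05. None of 6 genes for SRF, its ternary complex factors and the MRTF cofactors was called by those tools, with 1 at an unadjusted p below 0.05. Heat shock genes, a stress response outside AP-1, gave 0 calls of 9 in the same tools, with 2 at an unadjusted p below 0.05.
Of 8 MAP kinase phosphatases, 1 was called. Dusp8, a phosphatase of JNK and p38, had 2 and 2 reads in control and 44 and 52 in Sox2-KD, and from the summed reads the ratio was 23.7 with an exact 95% counting interval of 8.95 to 88.6. The Dusp8 log2 fold change was 4.48 (SE 1.14, adjusted p = 0.0258), and the gene had 19 and 4 reads in Cdk9-KD, and 12 and 1 where hnRNPK-KD was the label.

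**Figure D5:**
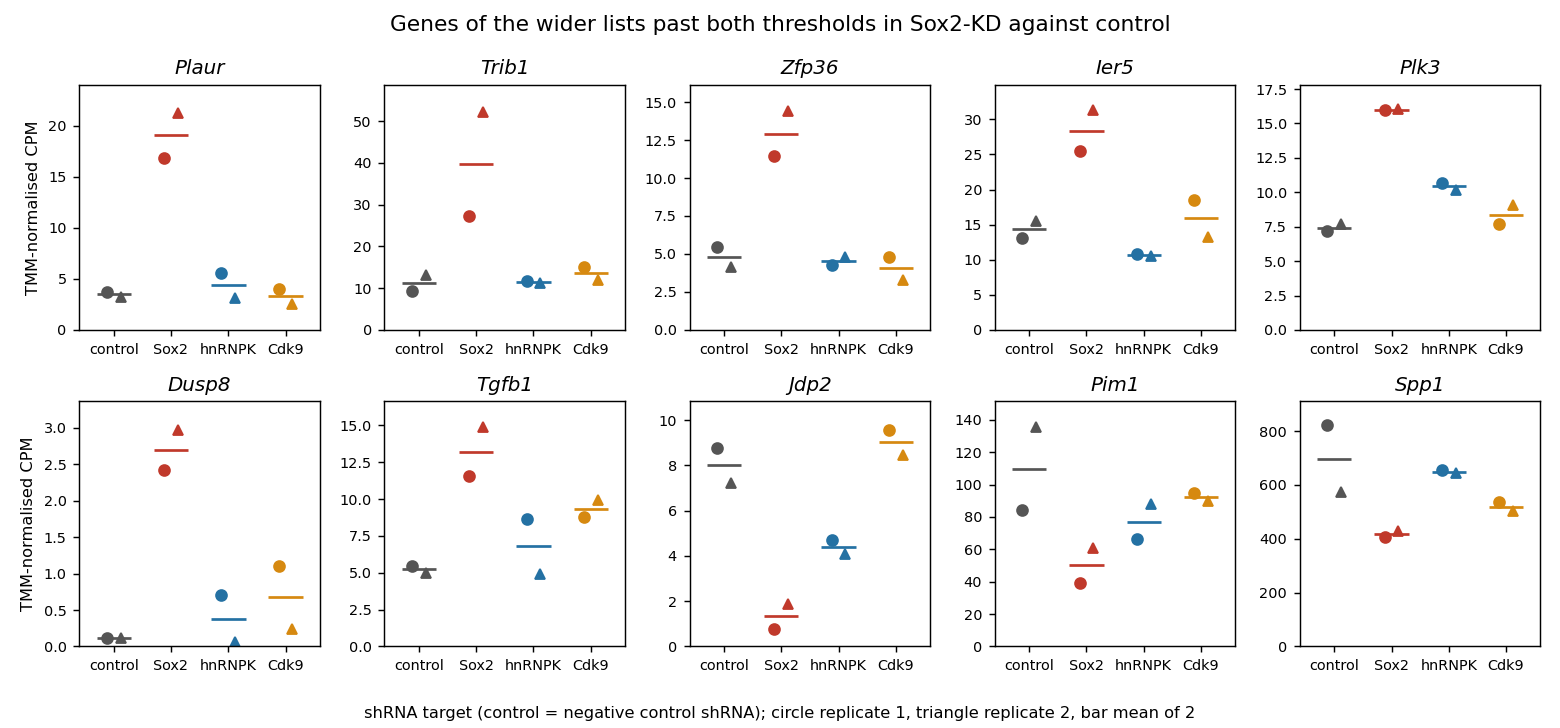
Level in each library, as TMM-normalised CPM on linear axes that start at 0, of the 10 genes of the wider lists called in Sox2-KD against control, with symbols as for the members. Both Sox2-KD libraries lie above both control libraries for Plaur, Trib1, Zfp36, Ier5, Plk3, Dusp8 and Tgfb1 and below them for Jdp2, Pim1 and Spp1.

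Markers of other cell types also differed in Sox2-KD against control, where 4.32% of all genes were called, 2.63% higher and 1.69% lower. Of 8 tested trophectoderm markers of a list of 10, 5 were called higher there. In Cdk9-KD against control 2 of the 8 were called, 1 higher and 1 lower, beside 0.139% of all genes. The summed trophectoderm list was at 191 and 325 CPM in Sox2-KD against 91.7 and 103 in control. It was at 83.8 and 82.2 CPM in Cdk9-KD and 99.1 and 131 in the libraries labelled hnRNPK-KD. Krt8 and Krt18, keratins of simple epithelia, rose by 2.97 and 4.34 on the log2 scale, while Cdx2, which defines the lineage, was at -2.15 (adjusted p = 0.0521). Of 7 tested primitive endoderm markers, Gata6 and Dab2 were called higher, at 3.65 and 5.85, and Lama1 lower. The summed primitive endoderm list was lower in Sox2-KD, at 139 and 224 CPM against 256 and 232 in control. It was at 359 and 292 CPM in Cdk9-KD and 332 and 336 in the libraries labelled hnRNPK-KD. The summed ESC markers were at 6251 and 6828 CPM in Sox2-KD against 7498 and 7302 in control. Of the 10 ESC markers, 2 were called there, 1 higher and 1 lower, and their median log2 fold change was -0.25. In the mesendoderm and fibroblast lists, 4 tested genes each, 2 and 1 were called, on sums of at most 28.0 and 6.19 CPM in any library. The part of these markers' cell types in the AP-1 and wider-list values was not tested.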

How the data were processed

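The authors deposited 1 table of whole-number counts per gene for the 8 libraries. Reads of 150 bases from both ends were trimmed with Trimmomatic, aligned to mm10 with GENCODE vM23 by STAR (2.7.9a in the submitters' processing notes) and counted with featureCounts 2.0.1, without stated strand or multimapper settings. Groups came from the sample labels. The 10 genes and the lists were chosen with earlier results of these data known. Counts were tested with edgeR 4.0.16 in R 4.3.3 (filterByExpr with a minimum of 10 counts, TMM, quasi-likelihood over all 8 libraries in 4 groups), with Benjamini-Hochberg adjustment over 16504 genes, and a call needed an adjusted p below 0.05 and a log2 fold change beyond 0.6. Replicates differed beyond counting noise (chi-square per gene 16.7 to 29.5). DESeq2 1.42.0 was an alternative. Named were all 10 members, list genes called in a comparison, the remaining AP-1, Egr and Nab genes, the targets and the 3 nearest profiles. Promoters came from RefSeq (GRCm38.p6). Columns with no matching sample numbered 0. Figures used matplotlib 3.10.9.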

Additional observations from a re-analysis of the deposited data

Results flagged for a closer look

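For 3 members a pair of knockdowns differed in a direct test. Junb stood higher in Sox2-KD than in Cdk9-KD, with a log2 fold change of 0.99, in 2 of 2 libraries. Ier2 stood lower in Sox2-KD than in Cdk9-KD, with a log2 fold change of -0.77, in 2 of 2 libraries. The Junb and Ier2 calls were both lost with no filter, with only the 4 libraries compared and with the replicate block. The Ier2 call was also lost with library totals and with at least 10 counts in every library. Jund stood higher in Sox2-KD than in the libraries labelled hnRNPK-KD, with a log2 fold change of 1.09 in 2 of 2 libraries. Of the pair labelled hnRNPK-KD, 1 library did not have less Hnrnpk RNA than control.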

How the results depend on the processing

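Of 40 log2 fold changes of members, 39 kept their direction in every alternative of scaling, test, filter and design that held the gene. Of the 40, 24 also kept it in the 8 fits that left out a library. Atf3 had no value with at least 10 counts in every library. The counts of members called were 0, 2 and 1 for Sox2-KD against control, Cdk9-KD and the libraries labelled hnRNPK-KD. Of all genes, 4.32%, 7.33% and 5.90% were called there. Over the alternatives of scaling, test, filter and design, the replicate block among them, calls over all genes ran from 558 to 1350, 869 to 1869 and 685 to 1690. In the same order, members called were 1, 1 and 1 with library totals, 2, 2 and 2 with DESeq2 and 2, 2 and 3 with the likelihood ratio test. Members called were 0, 1 and 1 with at least 10 counts in every library, 0, 0 and 1 with no filter and 2, 0 and 2 with only the 4 libraries compared. The cause was not tested. Over leave-one-out fits the ranges were 0 to 2, 0 to 2 and 0 to 2.

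Calls over all genes with the likelihood ratio test were 1350 for Sox2-KD against control, 1869 against Cdk9-KD and 1690 against the libraries labelled hnRNPK-KD, where the main counts were 713, 1210 and 974. For the libraries labelled hnRNPK-KD against control the main count of 0 became 69 with DESeq2, 87 with the likelihood ratio test and 1 with no filter. For Cdk9-KD against control the main count of 23 became 209, 279 and, with only the 4 libraries compared, 42. For Cdk9-KD against the libraries labelled hnRNPK-KD the main count of 0 became 49 and 67 with those tools. Wider-list calls in Cdk9-KD against control were 3 with either tool. Leave-one-out ranges over all genes, in the order of the 6 comparisons (each knockdown against control as Sox2, hnRNPK, Cdk9, then Sox2-KD against Cdk9-KD, Sox2-KD against hnRNPK-KD, Cdk9-KD against hnRNPK-KD), were 144 to 840, 0 to 1, 0 to 33, 337 to 1286, 90 to 1100 and 0 to 6. Over the wider lists they were 2 to 12 for Sox2-KD against control, 0 to 1 for Cdk9-KD against control, 5 to 13 for Sox2-KD against Cdk9-KD and 0 to 11 for Sox2-KD against the libraries labelled hnRNPK-KD.

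The deviations of same-numbered libraries had 6 correlations between groups, from -0.23 to 0.24. Of these, 2 were above 0.1, at 0.24 for control with Sox2-KD and 0.12 for control with the hnRNPK-KD label. The main fit held no replicate block. With the replicate block, members called were 2 (Jun and Jund) in Sox2-KD against control, 0 against Cdk9-KD and 2 against the libraries labelled hnRNPK-KD, and all genes called in Cdk9-KD against control were 15.

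Directions that turned belonged to values that did not pass. Dusp1 in Sox2-KD against control was -0.016 with no filter, and Atf2 there was 0.040 with library totals, which moved the median of all genes by 0.069. In Sox2-KD against the libraries labelled hnRNPK-KD that scaling moved the median by 0.11. Over leave-one-out fits the log2 fold changes in Sox2-KD against control ran from -0.82 to 0.40 for Ier3, -0.13 to 0.15 for Dusp1, -0.0030 to 0.24 for Fosb, -0.25 to 0.79 for Batf2, -0.17 to 0.091 for Atf2, -0.26 to 0.71 for Mafk and -0.39 to 0.21 for Nab2. In the libraries labelled hnRNPK-KD they ran from -0.62 to 0.093 for Fos, -0.016 to 1.09 for Jun, -0.29 to 0.18 for Junb, -0.38 to 0.031 for Jund, -0.18 to 0.29 for Ier2, -0.98 to 0.24 for Ier3, -0.13 to 0.49 for Dusp1 and -0.70 to 0.031 for Hnrnpk. In Cdk9-KD they ran from -0.23 to 0.67 for Fos, -0.11 to 0.47 for Jund, -0.35 to 0.87 for Ier3 and -1.92 to 0.49 for Atf3. In Sox2-KD against Cdk9-KD Jun ran from -0.19 to 1.54, and against the libraries labelled hnRNPK-KD Ier3 ran from -0.053 to 0.33 and Dusp1 from -0.48 to 0.14. Few reads limit Fosl1 and Egr1, and with 2 libraries a group every spread rests on few samples. By CPM or raw counts in place of CPM per kilobase, Jund and Dusp1 exchanged ranks 2 and 3 in control.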

Other observations

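Genes of the wider lists also separated Sox2-KD from the other knockdowns. Against Cdk9-KD, 11 of the 87 tested were called, 9 higher and 2 lower, beside 7.33% of all genes. Gadd45b, a stress sensor that docks on MAP kinase kinases, was at 26.3 and 26.1 CPM in Sox2-KD, close to the 23.3 and 20.9 of control, and at 8.76 and 10.8 in Cdk9-KD, a log2 fold change of 1.42 (SE 0.19, adjusted p = 0.00285). Dusp9, the ERK phosphatase of naive ESCs, was at 52.0 and 37.3 CPM in Sox2-KD, 13.8 and 10.7 in Cdk9-KD and 46.0 and 21.4 in control, and the log2 fold change between the first 2 groups was 1.86 (SE 0.34, adjusted p = 0.0112), a call lost without Sox2-KD replicate 1 or Cdk9-KD replicate 2. Klf2, a pluripotency factor that is also an early gene, was at 103 and 143 CPM in Sox2-KD, 266 and 254 in Cdk9-KD and 157 and 186 in control, a log2 fold change of -1.08 (SE 0.17, adjusted p = 0.00514) between the first 2. For Gadd45b and Klf2 the control libraries lay between those of both knockdowns. In Cdk9-KD against control, DESeq2 and the likelihood ratio test called Gadd45b while edgeR's quasi-likelihood test did not.

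Against the libraries labelled hnRNPK-KD, 10 of the 87 were called, 7 higher and 3 lower, beside 5.90% of all genes. Gadd45g had 21 and 27 reads in Sox2-KD and 1 and 1 in those libraries, a ratio of 23.0 with an exact counting interval of 6.03 to 195. Zfp36l1, a relative of Zfp36, was lower, at 86.2 and 74.7 CPM against 118 and 127, a log2 fold change of -0.61 (SE 0.14, adjusted p = 0.0345). Mapk8, which encodes the Jun kinase JNK1, was lower as well, at 37.3 and 29.3 CPM against 55.4 and 55.5, a log2 fold change of -0.74 (SE 0.18, adjusted p = 0.0363). The count of 10 became 0 without replicate 2 labelled hnRNPK-KD and 1 without Sox2-KD replicate 2, and the count of 11 became 5 without Sox2-KD replicate 2 and 6 without Cdk9-KD replicate 2.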
